A study of Mus musculus with 33 samples.

Results

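The interferon response genes described here are 39 listed genes that interferons are known to induce, followed in mouse liver over 11 times after removal of 70% of the liver. A gene was measured through the array probe sets that the platform annotation pairs with its symbol alone, and where a gene had several, the brightest on average represented it. Of the 39 genes, 36 had such a probe set, against 18193 genes measured in all. Isg15 and Tgtp1 were found only on probe sets that carry several symbols and Ifi44 on none, so these 3 genes have no value here. Mx1 ran from 3.43 to 5.62 on the log2 scale of the arrays and did not pass the filter on low values, which asks for 3 arrays or more with a log2 value of at least 5. This left 35 members among 13642 genes tested. The members were divided by the interferon best known to induce them into a type I class (19 listed, 16 tested), a gamma class (10 listed, 9 tested) and a class that both induce strongly (10 listed, 10 tested).

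Partial hepatectomy removes lobes of the liver, and the remaining lobes grow back through division of their cells. The data are 33 Affymetrix arrays of total liver RNA, with 3 arrays that the labels call biological replicates at each time: 0 d, then 0.25, 0.5 and 0.75 d within the first day, then 1 and 1.5 d, then 2, 3 and 4 d, and at last 7 and 14 d after surgery. Every label names the 70% resection, that of the 0 d livers included, which are the reference, and the labels name no sham operation. The sources used here do not give strain, genotype, sex or age, or whether the 0 d mice were operated.

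Interferons are secreted proteins, and cells make those of type I when they sense foreign or misplaced nucleic acid. The type I interferons signal through JAK1 and TYK2 to a complex that holds STAT2 and IRF9 and binds the interferon-stimulated response element (ISRE), and interferon gamma, made mostly by T and natural killer cells, signals through JAK1 and JAK2 to factors that bind the gamma-activated site (GAS). In liver, hepatocytes, Kupffer cells (the resident macrophages) and sinusoidal endothelial cells all carry interferon receptors, and many of the genes keep a basal level in the absence of infection.

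To show what the members share that the list did not use, their promoters were searched for the core letters of both elements, GAAANNGAAA for the ISRE and TTCNNNGAA for the GAS, on both strands (the second core reads the same on both). The windows are RefSeq promoters of build GRCm38.p6 that run from 250 bases before to 50 bases after a start site, and 31 of the 39 listed genes matched a window by symbol. The ISRE core lay in a window of 17 of the 31 genes (54.8%) and in 3.44% of all 32851 windows. The GAS core lay in a window of 10 of the 31 genes (32.3%) and in 8.3% of all windows. In the type I class 9 of 14 genes held the ISRE core and 3 of 14 the GAS core, in the gamma class 5 of 9 and 4 of 9, and in the class of both 3 of 8 and 3 of 8. Counting the bases before the start alone left the ISRE core in 14 genes (45.2%) against 2.98% of windows, and the GAS core in 9 genes (29%) against 7.02%. A match is a match of letters and not a measured binding site, and members with 2 windows had 2 chances to hold one. The 200 bases before the start are shown for 6 members on which the results turn. They are 3 type I genes with the ISRE core, Igtp with both cores, Irf1 with the GAS core and Cxcl9 with neither, with each core in capitals and all other bases in lower case.
Ifit1 (chr19:34640689-34640888, + strand): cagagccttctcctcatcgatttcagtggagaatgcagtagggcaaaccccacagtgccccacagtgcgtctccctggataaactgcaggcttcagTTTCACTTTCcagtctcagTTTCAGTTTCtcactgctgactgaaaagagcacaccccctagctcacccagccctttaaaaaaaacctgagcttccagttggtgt
Ifit3 (chr19:34583329-34583528, + strand): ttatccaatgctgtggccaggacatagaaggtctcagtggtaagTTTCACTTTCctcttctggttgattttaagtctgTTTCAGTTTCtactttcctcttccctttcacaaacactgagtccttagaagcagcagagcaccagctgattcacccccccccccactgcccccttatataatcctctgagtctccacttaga
Rsad2 (chr12:26456453-26456652, - strand): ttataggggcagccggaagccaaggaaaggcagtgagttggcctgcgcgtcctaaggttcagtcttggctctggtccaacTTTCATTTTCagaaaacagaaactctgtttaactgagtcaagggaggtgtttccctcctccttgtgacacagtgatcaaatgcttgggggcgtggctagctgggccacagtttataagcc
Igtp (chr11:58199356-58199555, + strand): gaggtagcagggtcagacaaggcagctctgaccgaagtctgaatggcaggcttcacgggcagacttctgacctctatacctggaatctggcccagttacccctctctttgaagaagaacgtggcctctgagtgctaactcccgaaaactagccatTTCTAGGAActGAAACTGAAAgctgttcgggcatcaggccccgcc
Irf1 (chr11:53769814-53770013, + strand): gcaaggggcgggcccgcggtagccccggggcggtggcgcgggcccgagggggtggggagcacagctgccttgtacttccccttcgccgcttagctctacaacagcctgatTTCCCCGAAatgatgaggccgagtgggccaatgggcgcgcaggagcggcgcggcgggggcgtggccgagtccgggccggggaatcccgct
Cxcl9 (chr5:92328080-92328279, - strand): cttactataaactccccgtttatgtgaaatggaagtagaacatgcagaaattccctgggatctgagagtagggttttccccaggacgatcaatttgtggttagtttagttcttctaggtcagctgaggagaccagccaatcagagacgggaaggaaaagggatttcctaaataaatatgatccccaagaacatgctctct
The Ifit1 and Ifit3 promoters each held 2 ISRE cores and the Rsad2 promoter 1, all of them read on the opposite strand. In Igtp, an interferon gamma-induced GTPase, the GAS core and the ISRE core stood 2 bases apart without overlap. Irf1 has 2 windows in the table, and the one shown holds its GAS core.

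Albumin and the other hepatocyte markers were high on every array. The summed signal of 7 hepatocyte markers lay between 130000 and 140000 on a linear scale on all 33 arrays. The arrays of 0.25, 0.5, 0.75 and 1.5 d carry accession numbers of a separate run from the other 7 times. The labels do not call this a batch, and each time lies wholly in a single run, so run and time cannot be told apart. The 1.5 d arrays sit between 1 d and 2 d of the other run, and 0 members differed between 1.5 d and the mean of 1 d and 2 d by limma's moderated test, with 0 at an unadjusted p under 0.05. Few genes of any kind were called there (0.00733% higher and 0.0147% lower), so the count says nothing particular about the members. Their median difference there was -0.18.

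2 arrays stood apart for these genes. The array labelled 0.25 d replicate 1 lay at least 1 log2 unit above both other 0.25 d arrays for 24 of the 35 members (14 of 16 type I genes, 6 of 9 gamma genes and 4 of 10 induced by both), and for 1.15% of all genes tested. Its median over the type I class was 1.93 above the 0 d mean, while the other 0.25 d arrays were at -0.43 and -0.60. The same array had the highest signal of the 18S ribosomal RNA control of all arrays, 12.22 against 8.91 to 11.51 on the others, and a correlation of 0.986 with its own group over all probe sets. No other array of the 33 lay 1 unit above both its partners for more than 1 member.

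The array labelled 0.5 d replicate 3 lay at least 1 unit below both other 0.5 d arrays for 6 members, and for 2.14% of all genes tested. Its correlation with its own group was the lowest of all arrays, 0.984. Over the tested genes, after each gene was centred, it correlated better with the mean of the 0.25 d arrays (r = 0.73) than with its 2 partners (r = 0.64). That alone does not single it out, since 10 of the 33 arrays were nearer to another time than to their own. Cidec, a lipid droplet protein chosen here after its values were seen, was at 9.70, 9.04 and 9.80 at 0.25 d and at 6.22, 6.39 and 9.89 at 0.5 d. The cell cycle inhibitor Cdkn1a, chosen in the same way, was at 11.29, 10.45 and 10.65 and at 8.94, 8.24 and 11.20. In both genes the array labelled 0.5 d replicate 3 lay within or beside the 0.25 d values and apart from its partners. Results are given with all 33 arrays and without these 2 arrays. Leaving out an array because it was high removes high values by choice, so the second set of counts describes the remaining arrays and is no independent evidence.

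At 0.5 and 0.75 d after surgery the medians of all 3 classes of interferon response genes lay below their 0 d level, and at 3 d they lay above it. In whole liver RNA, fewer cells of a type and less RNA per cell cannot be told apart. With all arrays, the median difference of the type I class from 0 d was 0.17 at 0.25 d, -0.74 at 0.5 d, -0.37 at 0.75 d and 0.05 at 1 d. The gamma class stood at -0.37, -0.52, -0.48 and -0.18 at the same times, and the class of both at -0.19, -0.48, -0.25 and -0.01. Without the 2 arrays that stood apart the 0.25 d medians were -0.55, -0.95 and -0.55, and the 0.5 d medians -0.39, -0.39 and -0.25. All 3 classes were therefore below 0 d at 0.25 d on the remaining arrays, while the 3-array median of the type I class lay above it. The median over all genes tested lay between -0.046 and -0.004 in every comparison with 0 d.

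**Figure D1:**
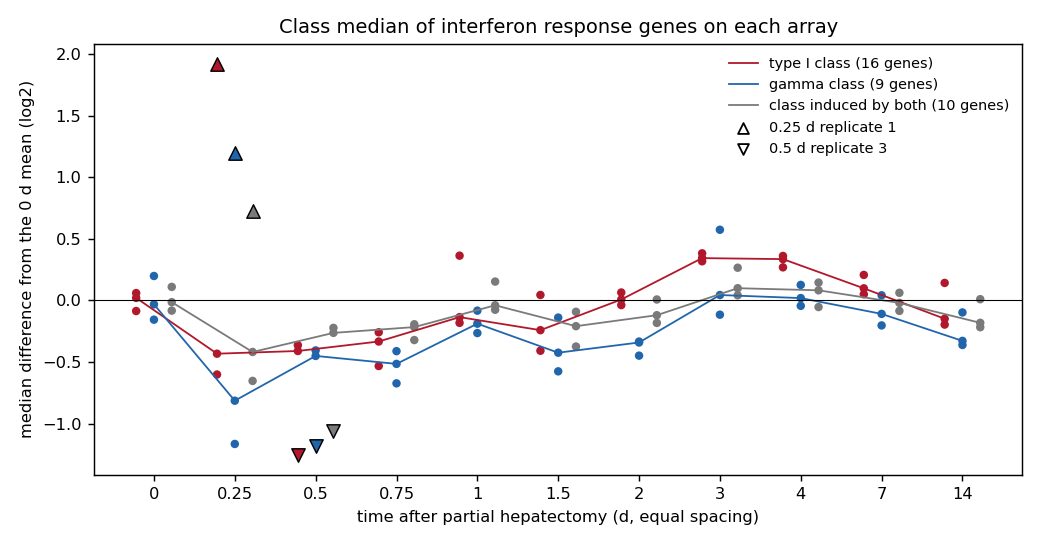
Each point is the median, over the tested members of a class, of an array's log2 difference from the 0 d mean, at 11 equally spaced times, and each line joins the middle array of the 3 at each time. The triangle pointing up is 0.25 d replicate 1, at 1.93 for the type I class, and the triangle pointing down is 0.5 d replicate 3, at -1.26.

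At 2 d the type I median had returned to 0.04 and the gamma median was still -0.33. At 3 d they were 0.35 and 0.17, at 4 d 0.32 and 0.06, at 7 d 0.14 and -0.06 and at 14 d -0.05 and -0.10. On the single arrays at 3 and 4 d the type I median lay between 0.27 and 0.38. The gamma median ranged from -0.12 to 0.57, and the upper end was 3 d replicate 2. At 4 d all 3 type I medians lay above all 3 gamma medians, and at 3 d they did not. Counting the genes induced by both with either class gave 3 d medians of 0.24 for type I and 0.15 for gamma and 2 d medians of -0.01 and -0.29. Counted in this way, the medians were -0.01 and -0.07 at 1 d and -0.18 and -0.29 at 1.5 d. These class medians are descriptions, and the difference between the classes was not tested.

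By the moderated F-test over the 10 differences from 0 d, 19 of the 35 members varied over the time course, against 69.4% of all genes tested. The 19 were 9 of 16 type I genes, 6 of 9 gamma genes and 4 of 10 induced by both. With the other 31 arrays 33 of 35 varied, against 66.7% of all genes. Leaving out 0.25 d replicate 1 alone gave 31, against 66.3%, and leaving out 0.5 d replicate 3 alone gave 15, against 69.1%. With all arrays and without 0.5 d replicate 3 the members' share lay below that of all genes.

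**Figure D2:**
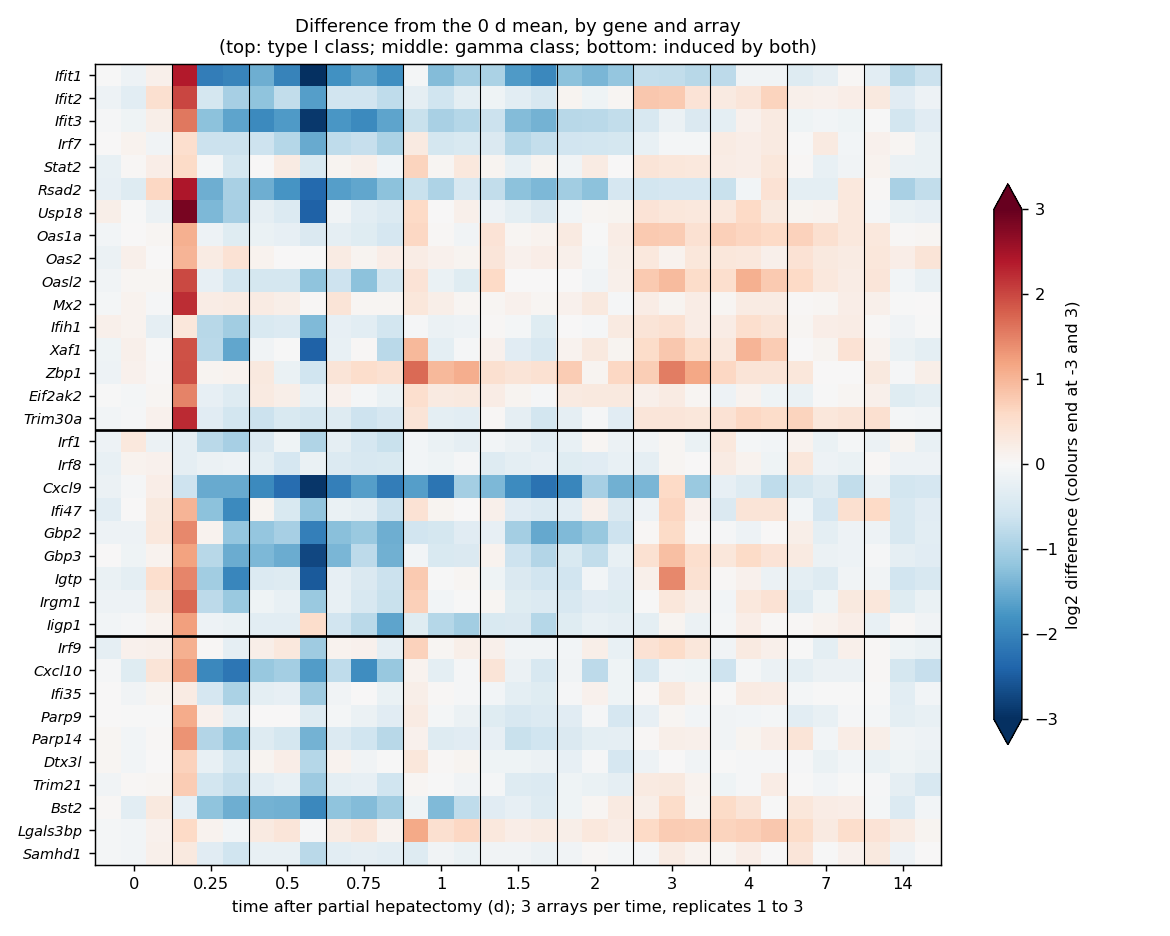
Rows are the 35 tested members by class and columns the 33 arrays in order of time, and colour gives the log2 difference from the gene's 0 d mean. The column of 0.25 d replicate 1 is above both its partners by 1 or more in 24 rows, and blue fills the rows of the Ifit genes, Rsad2, Cxcl9, Gbp2, Gbp3 and Bst2 at 0.5 and 0.75 d.

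At 0.25 d, 2 members rose and 3 fell with all arrays, against 17.2% of all genes higher and 28.8% lower, so the members' shares lay below the background in both directions. With both arrays left out 1 member rose and 22 fell, against 13.2% and 25.6% of all genes. Leaving out 0.25 d replicate 1 alone gave 20 lower, against 23.9%. The 3 genes lower with all arrays, Irf1, Cxcl9 and Bst2, are all among the 22.

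At 0.5 d, 14 of 35 members fell and 0 rose, against 19.4% of all genes lower and 15.8% higher. The 14 were 6 of the type I class, 5 of the gamma class and 3 induced by both, and 31 of the 35 differences were below 0. In the fit to 31 arrays 14 members fell as well, against 16.2%, and 11 genes were in both sets. The calls with 1 array left out ran from 6 without 0.5 d replicate 3 (against 14.8% of all genes, so that the members' share of 17.1% was close to the background) to 21 without 0.25 d replicate 1 (against 20.4%). For 20 of the 35 members all 3 arrays of 0.5 d lay below all 3 arrays of 0 d, which held for 22.2% of all genes tested.

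At 0.75 d, 8 members fell and 0 rose, against 12.7% of all genes lower and 9.84% higher. 5 of the 8 belonged to the gamma class of 9, 2 to the type I class of 16 and 1 to the class of both. Leaving out both arrays, neither of which is a 0.75 d or a 0 d array, gave 19 lower, against 15.9%. Each gene's spread is estimated from all times together. Leaving out 0.25 d replicate 1 alone gave 16, against 14%, and leaving out 0.75 d replicate 3 gave 4 (11.4% of members), against 9.27%. All 3 arrays of 0.75 d lay below all 3 of 0 d for 21 members, and for 21.7% of all genes.

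At 1, 1.5 and 2 d fewer members were called lower than at 0.5 and 0.75 d, in both fits. All 3 arrays lay below all 3 of 0 d for 6 of 35 members at 1 d, 12 at 1.5 d and 13 at 2 d. This held for 19.6%, 21.4% and 19.2% of all genes at the same times. At 1 d, 2 members were higher and 2 lower (background 8.16% and 9.55%), and 3 and 5 without the 2 arrays (10.2% and 12.6%). At 1.5 d, 0 were higher and 2 lower (8.33% and 11.7%), with 9 lower without the 2 arrays (15.4%). At 2 d, 0 were higher and 1 lower (11% and 11.6%), with 6 lower without the 2 arrays (15.1%). The members' shares at 2 d lay below the background in both directions with all arrays. Without the 2 arrays the share lower was close to the background, and 0 members were higher, against 12.8% of all genes.

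At 3 d, 3 members rose and 0 fell (background 10.2% higher and 10.9% lower), so with all arrays the share of members that rose, 8.57%, lay below the background. Without the 2 arrays 10 rose and 1 fell (12.2% and 14.2%). All 3 arrays of 3 d lay above all 3 of 0 d for 12 of 35 members, 8 of them type I genes, and for 18.3% of all genes. At 4 d 1 member rose and 0 fell (1.88% and 0.975%), and 3 rose without the 2 arrays (2.96%). At 4 d all 3 arrays lay above 0 d for 11 members, 9 of them type I genes, and for 12.1% of all genes. At 7 d and at 14 d limma called 0 members in either direction, with 3 members at 7 d and 1 at 14 d at an unadjusted p under 0.05. The background was 0.125% higher and 0.0586% lower at 7 d, and 0.0147% higher and 0% lower at 14 d.

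**Figure D3:**
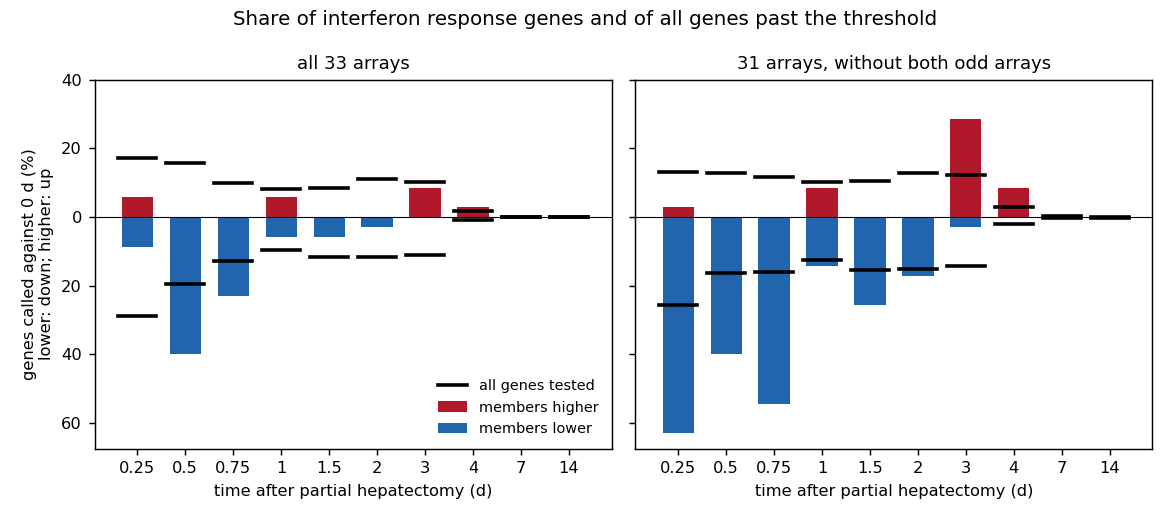
Bars give the percent of the 35 tested members that passed the threshold against 0 d at each time, upward for higher and downward for lower, and black lines give the same for all 13642 genes tested. With all 33 arrays (left) the bars for lower pass the black line at 0.5 d (14 members) and 0.75 d (8 members). With 31 arrays (right) they also pass it at 0.25 d (22 members) and 1.5 d (9 members), and lie close to it at 1 and 2 d.

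Among the type I effectors, the Ifit genes, which bind viral RNA that lacks the host cap, held the 2 largest falls at 0.5 d. Ifit1 was at 7.05, 6.93 and 7.23 on the 0 d arrays, at 9.46, 5.0 and 5.09 at 0.25 d, at 5.59, 5.08 and 3.96 at 0.5 d and at 5.25, 5.50 and 5.24 at 0.75 d. Replicate 1 of 0.25 d was above every other array, and all other values at these 3 later times lay below the 0 d range. The difference at 0.5 d was -2.19 (SE 0.65, adjusted p = 0.0104), and -1.74 (SE 0.28, adjusted p = 3.71e-05) without the 2 arrays. Ifit1 came back slowly, with 5.85, 5.69 and 5.92 at 2 d, 6.35, 6.33 and 6.24 at 3 d and 6.69, 6.81 and 7.12 at 7 d. It was still lower at 3 d without the 2 arrays, with a difference of -0.77 (SE 0.25, adjusted p = 0.0246).

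Ifit3 followed the same course, at 7.84, 7.74 and 8.04 at 0 d, 5.95, 6.17 and 4.98 at 0.5 d and 6.14, 5.96 and 6.30 at 0.75 d. Its difference was -2.17 (SE 0.45, adjusted p = 0.00044) at 0.5 d and -1.74 (SE 0.45, adjusted p = 0.00584) at 0.75 d, with no overlap between either time and 0 d. Ifit2 fell at 0.5 d, with a difference of -1.19 (SE 0.42, adjusted p = 0.0264). At 3 d it was at 6.15, 6.12 and 5.75 against 5.17, 5.02 and 5.80 at 0 d, which passed without the 2 arrays (0.68, SE 0.18, adjusted p = 0.00817) and not with all arrays (0.68, SE 0.42, adjusted p = 0.265). At 0.25 d the sign of the Ifit2 difference depended on a single array: it was 0.17 with it and -0.75 without it.

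Rsad2 (viperin), an antiviral enzyme that makes a chain-terminating nucleotide, was at 8.29, 8.14 and 9.16 at 0 d, at 10.95, 7.07 and 7.56 at 0.25 d and at 7.08, 6.76 and 6.19 at 0.5 d. Its fall at 0.5 d was -1.85 (SE 0.56, adjusted p = 0.0115), and the 0.5 d arrays lay wholly below those of 0 d. Irf7, the transcription factor that amplifies type I interferon production, fell at 0.5 d (-1.0, SE 0.23, adjusted p = 0.00142), at 0.75 d (-0.81, SE 0.23, adjusted p = 0.0129) and at 1.5 d (-0.67, SE 0.23, adjusted p = 0.0413). Its values were 8.14, 8.23 and 8.03 at 0 d and 7.36, 7.44 and 7.17 at 0.75 d, with all 0.75 d arrays lower.

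Usp18, which removes ISG15 from proteins and blocks the type I receptor, was split at 0.25 d, with 11.08, 6.87 and 7.22 against 8.41, 8.21 and 8.06 at 0 d. At 0.5 d it was at 7.96, 7.82 and 5.81, so both arrays that stood apart were at the ends of its range. The 0.25 d difference was 0.16 (SE 0.61, adjusted p = 0.845) with all arrays and -1.18 (SE 0.15, adjusted p = 9.76e-07) without the 2, and array weights gave -0.58. By 0.75 d it was back near its starting level, at 8.12, 7.92 and 7.82. Xaf1, an apoptosis-promoting factor, was split in the same way at 0.25 d, with 8.88, 6.16 and 5.39 against 6.83, 7.10 and 6.96 at 0 d. It passed no comparison with 0 d with all arrays and was called lower at 0.25 d without the 2. Eif2ak2 (PKR), the kinase that stops translation on sensing double-stranded RNA, was at 8.73, 7.0 and 6.87 at 0.25 d and 7.25, 7.19 and 7.32 at 0 d, and its 0.25 d difference changed from 0.28 to -0.32 without the 2 arrays.

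The oligoadenylate synthetases, which activate RNase L, were not called lower than 0 d at any time with all arrays. In Oas1a and Oasl2 all 3 arrays of 0.75 d nonetheless lay below all 3 of 0 d. Without the 2 arrays Oasl2 was called lower at 0.75 d, and both genes were called higher at 4 d. Oas1a was at 7.34, 7.44 and 7.49 at 0 d, at 7.15, 7.07 and 6.92 at 0.75 d and at 8.22, 8.20 and 7.88 at 3 d, and it rose at 3 d by 0.67 (SE 0.23, adjusted p = 0.0341). Oasl2 went from 5.45, 5.63 and 5.62 at 0 d to 4.95, 4.33 and 5.01 at 0.75 d and 6.35, 6.51 and 6.13 at 3 d, and its 3 d difference passed without the 2 arrays (0.76, SE 0.20, adjusted p = 0.00731) and not with all arrays (0.76, SE 0.38, adjusted p = 0.165). Oas2 rose at 0.25 d by 0.57 (SE 0.13, adjusted p = 0.000875), and by 0.34 (SE 0.10, adjusted p = 0.0124) without the 2 arrays, with values of 7.97, 7.17 and 7.37 against 6.77, 7.08 and 6.95. The GTPase Mx2 was called higher at 0.25 d (0.90, SE 0.28, adjusted p = 0.01), but this rested on 1 array: its values were 8.67, 6.69 and 6.71 against 6.41, 6.56 and 6.42 at 0 d, and without the 2 arrays the difference was 0.24 (SE 0.11, adjusted p = 0.0757).

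**Figure D4:**
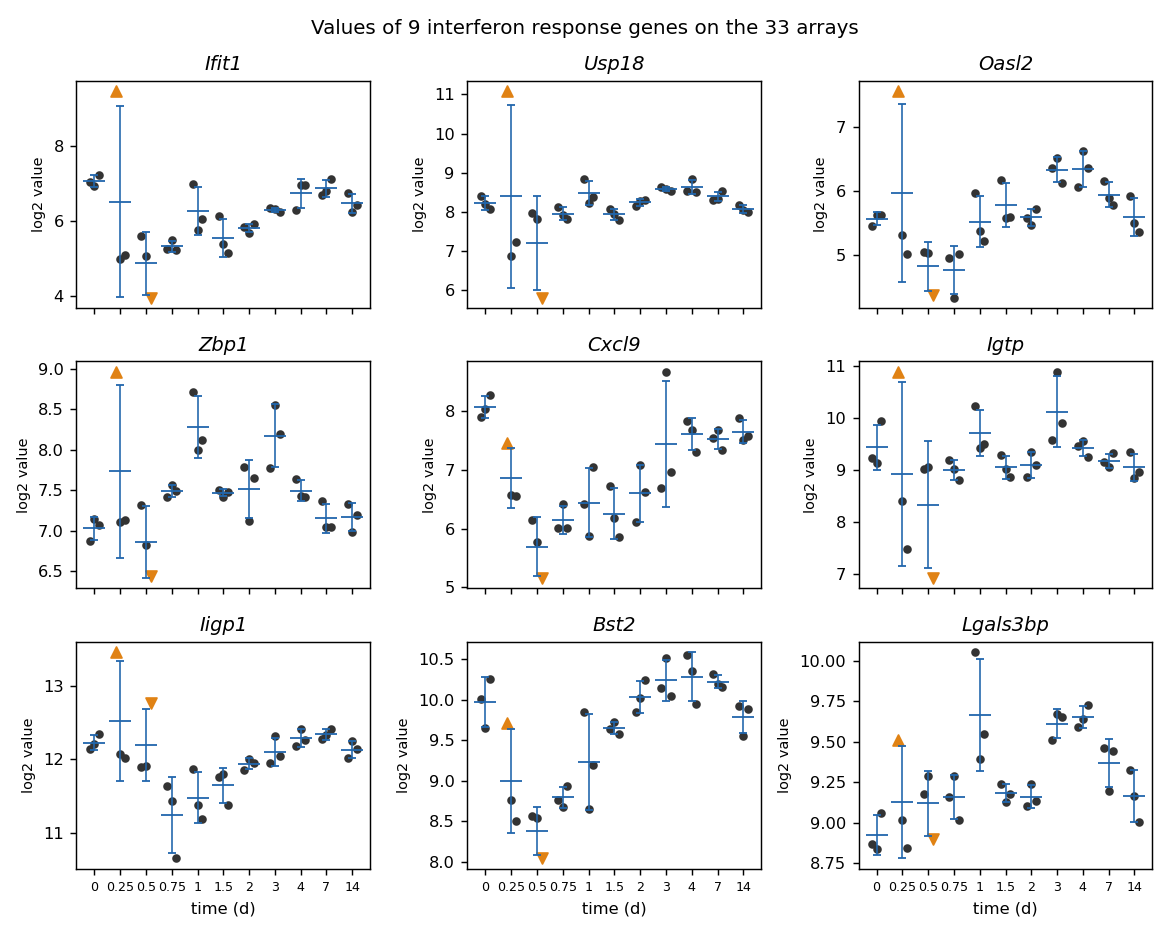
Points are the log2 values of 9 members on the 33 arrays at 11 times, blue bars the mean and SD of the 3 arrays at each time, and orange triangles 0.25 d replicate 1 (up) and 0.5 d replicate 3 (down). In Ifit1 and Usp18 the upward triangle is the highest of all 33 values, in Cxcl9 it lies below the 0 d values, and in Iigp1 the downward triangle lies above its partners.

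Zbp1, a sensor of left-handed nucleic acid that can start necroptosis, was at 6.87, 7.15 and 7.07 at 0 d, at 7.42, 7.57 and 7.50 at 0.75 d, at 8.72, 8.0 and 8.13 at 1 d, at 7.79, 7.12 and 7.65 at 2 d and at 7.78, 8.56 and 8.20 at 3 d. It rose at 1 d by 1.25 (SE 0.31, adjusted p = 0.00662) and at 3 d by 1.15 (SE 0.31, adjusted p = 0.0104), and all arrays of both times lay above the 0 d arrays. Ifih1 (MDA5), a sensor of long double-stranded RNA, fell at 0.5 d (-0.73, SE 0.23, adjusted p = 0.0167). Stat2, a subunit of the factor that binds the ISRE, passed at no time in either fit, with means between 7.13 and 7.59. Trim30a, a restraint on inflammatory signalling, fell at 0.5 and 0.75 d without the 2 arrays and at no time with all arrays. Its 0.5 d difference was -0.54 (SE 0.18, adjusted p = 0.0267) without the 2 arrays and -0.55 (SE 0.39, adjusted p = 0.294) with all arrays.

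In the gamma class the chemokine Cxcl9, which draws T cells through CXCR3, had the largest fall of any member with all arrays. It was at 7.90, 8.04 and 8.27 at 0 d, at 7.46, 6.57 and 6.56 at 0.25 d, at 6.15, 5.77 and 5.16 at 0.5 d and at 6.01, 6.42 and 6.01 at 0.75 d. All 9 of these later values lay below the 0 d range, 0.25 d replicate 1 included. The differences were -1.21 (SE 0.38, adjusted p = 0.0106) at 0.25 d, -2.38 (SE 0.38, adjusted p = 1.84e-05) at 0.5 d, -1.93 (SE 0.38, adjusted p = 0.000457) at 0.75 d and -1.46 (SE 0.38, adjusted p = 0.00556) at 2 d. Cxcl9 was called lower at all 6 times from 0.25 to 2 d, which held for no other member with all arrays. At 3 d its arrays spread from 6.70 to 8.67, and at 14 d they were at 7.88, 7.51 and 7.57.

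The guanylate-binding proteins are GTPases that attack membranes around intracellular microbes, and both measured members fell. Gbp3 was at 7.12, 6.98 and 7.21 at 0 d, at 5.76, 5.62 and 4.37 at 0.5 d, at 5.73, 6.32 and 5.67 at 0.75 d and at 7.57, 8.02 and 7.61 at 3 d. The 0.5 and 0.75 d arrays lay below and the 3 d arrays above all 0 d arrays, with differences of -1.86 (SE 0.41, adjusted p = 0.000895) at 0.5 d and 0.63 (SE 0.41, adjusted p = 0.304) at 3 d. The second passed without the 2 arrays (0.63, SE 0.21, adjusted p = 0.033). Gbp2 fell with differences of -1.40 (SE 0.39, adjusted p = 0.0063) at 0.5 d and -1.28 (SE 0.39, adjusted p = 0.0187) at 0.75 d.

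The immunity-related GTPases, which act on the same membranes, were less uniform. Igtp was at 9.23, 9.14 and 9.94 at 0 d, 10.90, 8.41 and 7.48 at 0.25 d, 9.03, 9.06 and 6.92 at 0.5 d and 9.59, 10.89 and 9.91 at 3 d, and passed at no time with all arrays. It fell at 0.25 d without the 2 arrays, with a difference of -1.50 (SE 0.31, adjusted p = 0.000435), and Irgm1 (-0.95, SE 0.23, adjusted p = 0.0025) and Ifi47 (-1.57, SE 0.33, adjusted p = 0.000568) fell with it. Iigp1 fell later, at 0.75 d (-0.99, SE 0.28, adjusted p = 0.0108), where its values were 11.64, 11.43 and 10.65 against 12.14, 12.20 and 12.34 at 0 d. At 0.5 d, replicate 3 of Iigp1 lay above its partners, at 11.90, 11.91 and 12.76.

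The gamma-induced transcription factors Irf1 and Irf8 differed less in size. Irf1 was at 8.86, 9.33 and 8.82 at 0 d and 8.74, 8.19 and 8.01 at 0.25 d, all lower, with a difference of -0.69 (SE 0.18, adjusted p = 0.00263). Irf8, which macrophages and dendritic cells need for their development, was at 6.55, 6.89 and 6.91 at 0 d and 6.37, 6.31 and 6.31 at 0.75 d, with -0.45 (SE 0.12, adjusted p = 0.00843).

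In the class that both interferons induce, Bst2 (tetherin), which holds budding virus at the cell surface, was lower at 4 times. Its values were 10.02, 9.65 and 10.26 at 0 d, 9.72, 8.76 and 8.50 at 0.25 d, 8.56, 8.54 and 8.04 at 0.5 d and 9.84, 8.65 and 9.20 at 1 d, and at 0.5 d all arrays lay below 0 d. The differences were -0.98 (SE 0.25, adjusted p = 0.00291) at 0.25 d, -1.59 (SE 0.25, adjusted p = 2.2e-05) at 0.5 d, -1.18 (SE 0.25, adjusted p = 0.00131) at 0.75 d and -0.74 (SE 0.25, adjusted p = 0.0445) at 1 d. Lgals3bp, a secreted scavenger-receptor glycoprotein, went the other way, from 8.87, 8.83 and 9.06 at 0 d to 10.05, 9.39 and 9.55 at 1 d, 9.51, 9.67 and 9.65 at 3 d and 9.59, 9.64 and 9.72 at 4 d. It rose by 0.74 (SE 0.15, adjusted p = 0.000802) at 1 d, 0.69 (SE 0.15, adjusted p = 0.00139) at 3 d and 0.73 (SE 0.15, adjusted p = 0.00787) at 4 d, and its 0.5 and 0.75 d differences were 0.20 and 0.24.

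Cxcl10, a CXCR3 chemokine like Cxcl9, was at 6.40, 6.08 and 6.83 at 0 d and 7.73, 4.50 and 4.28 at 0.25 d. With all arrays it passed at no time, and without the 2 arrays it fell at 0.25 d, with a difference of -2.05 (SE 0.28, adjusted p = 4.33e-06), at 0.5 d (-1.08, SE 0.28, adjusted p = 0.00545) and at 0.75 d (-1.26, SE 0.25, adjusted p = 0.00059). At 1 d it was at 6.55, 6.15 and 6.41, within the 0 d range on all 3 arrays, while Cxcl9 was at 6.43, 5.87 and 7.04. Irf9, the DNA-binding subunit of the ISRE factor, rose at 3 d without the 2 arrays (0.44, SE 0.16, adjusted p = 0.0453) and not with all arrays (0.44, SE 0.28, adjusted p = 0.289). Ifi35 (-0.54, SE 0.20, adjusted p = 0.0354) and Samhd1 (-0.42, SE 0.16, adjusted p = 0.0477), a phosphohydrolase that empties the pool of deoxynucleotides, fell at 0.5 d with all arrays and not without the 2. The ADP-ribosyltransferase Parp14, its inactive relative Parp9, the ubiquitin ligase Dtx3l that pairs with Parp9, and the antibody receptor Trim21 passed at no time with all arrays. Without the 2 arrays Parp14 was called lower at 0.25, 0.5, 0.75 and 1.5 d, Trim21 at 0.25 and 0.75 d, Dtx3l at 0.25 d and Parp9 at 1.5 d.

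Between neighbouring times, 10 members fell from 0.25 to 0.5 d with all arrays (background 5.25% lower), 7 of them type I genes. The direction of this step turned when these 2 arrays were left out: 0 fell and 12 rose (background 14.2% higher). From 0.75 to 1 d 0 members rose by limma's test (7 changed at an unadjusted p under 0.05, background 0.594% higher), and 10 rose without the 2 arrays (1.91%), among them 7 type I genes. From 2 to 3 d 0 rose (6 changed at an unadjusted p under 0.05, background 0.205% higher), and 2 gamma genes rose without the 2 arrays (0.572%).

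Of the members tested, 15 had further probe sets with their symbol alone, 21 in all. At 0.5 d 15 of these 21 moved in the same direction as the probe set used. The other 6 belong to Eif2ak2 and Samhd1 (2 each) and to Iigp1 and Xaf1.

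Tested members whose window held the ISRE core (15 genes) had a median difference of -1.10 at 0.5 d, and those with a window without it (13 genes) of -0.52. The first of these medians is the difference of Igtp, which was at 9.03, 9.06 and 6.92 at 0.5 d and so leans on replicate 3. Medians without that array were not computed. At 0.75 d the group medians were closer, -0.51 and -0.37, and at 3 d they were 0.22 and 0.15. The ranges at 0.5 d overlapped, from -2.19 to 0.07 with the core and from -2.38 to 0.20 without it. Of each group 7 genes were called lower at 0.5 d, Cxcl9, whose promoter shown above holds neither core, among those without it.

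The interferon genes themselves lay low. Of 13 listed, 8 were measured and 3 passed the filter. Ifng ran from 2.50 to 3.02 and Ifna4 from 3.60 to 4.34 on the 33 arrays. Ifnb1 was at 4.89, 4.67 and 4.63 at 0 d and 5.39, 4.74 and 5.30 at 0.25 d, called higher by 0.42 (SE 0.14, adjusted p = 0.016), and it ran from 4.30 to 5.39 over all arrays, around the value of 5 used as the filter. In the fit to 31 arrays 0 interferon genes were called. Of the receptors and kinases, 8 of 10 were tested. Jak2, the kinase of the gamma receptor, fell at 0.25 d (-0.60, SE 0.09, adjusted p = 9.08e-06) and at 0.5 d (-0.31, SE 0.09, adjusted p = 0.00912), Jak1 rose at 0.25 d (0.21, SE 0.08, adjusted p = 0.0434), and the type I receptor chain Ifnar2 was lower at 0.75, 1.5, 2 and 3 d. In the fit to 31 arrays Jak2 at 0.25 d and Ifnar2 at 0.75 d kept their calls, and Jak1 at 0.25 d and Jak2 at 0.5 d did not.

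Of 11 tested inhibitors, 3 rose and 2 fell at 0.25 d, against 17.2% of all genes higher and 28.8% lower. Socs3, a feedback inhibitor of JAK kinases that interleukin 6 induces strongly, was at 5.98, 8.77 and 6.98 at 0 d and 11.37, 10.83 and 10.59 at 0.25 d, all 3 higher (3.69, SE 0.67, adjusted p = 8.99e-05). Ptpn2, a phosphatase that removes phosphate from JAK1, was at 8.43, 8.37 and 8.43 and 10.21, 9.49 and 9.50 at the same times, with no overlap (1.32, SE 0.20, adjusted p = 8.56e-06), and at 8.85, 8.79 and 9.98 at 0.5 d. Socs1, the inhibitor of the gamma receptor complex, was at 4.31, 4.66 and 4.63 and 6.40, 5.03 and 4.95, with the highest value on 0.25 d replicate 1 (0.93, SE 0.22, adjusted p = 0.00125). The 2 that fell were Rnaseh2a and Rnaseh2c, subunits of the RNase H2 that keeps nucleic acids from being sensed. The same 3 and 2 genes were called at 0.25 d in the fit to 31 arrays, against 13.2% and 25.6% of all genes.

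Of 15 tested sensors and adaptors, 5 rose at 0.25 d and 2 fell, against 17.2% of all genes higher and 28.8% lower. Myd88, the adaptor of most Toll-like receptors, rose by 1.42 (SE 0.17, adjusted p = 4.21e-07), from 7.80, 7.97 and 7.82 to 9.85, 9.14 and 8.86, and Irf5, a factor that acts downstream of it, fell, with -0.82 (SE 0.11, adjusted p = 2.56e-06). In the fit to 31 arrays the same 5 genes rose, and 5 fell, with Ddx58, Dhx58 and Tlr3 beside Irf3 and Irf5. Of all genes 13.2% rose and 25.6% fell in that fit. Sting1, Ticam1 and Tbk1 rose with all arrays by 0.62, 0.50 and 0.49.

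Type I targets outside the members gave mixed counts. Of 30 tested, 6 rose and 1 fell at 0.25 d, 4 rose and 8 fell at 0.5 d, and 1 rose and 4 fell at 0.75 d, with median differences of -0.10, -0.38 and -0.29. Of all genes 17.2% rose and 28.8% fell at 0.25 d, 15.8% and 19.4% at 0.5 d, and 9.84% and 12.7% at 0.75 d. With all arrays the rises at 0.25 and 0.5 d and the falls at 0.75 d were close to these shares. With both arrays left out 4 rose and 13 fell at 0.25 d, 3 and 9 at 0.5 d, and 2 and 12 at 0.75 d. Of all genes 13.2% rose and 25.6% fell at 0.25 d in that fit, 12.8% and 16.2% at 0.5 d, and 11.8% and 15.9% at 0.75 d. The largest changes at 0.5 d were in Cmpk2 (-1.50, SE 0.52, adjusted p = 0.0256), a nucleotide kinase encoded beside Rsad2, Ifi27l2a (-1.29, SE 0.35, adjusted p = 0.00507), Tor3a (1.29, SE 0.32, adjusted p = 0.00214), which rose, and Trim34a (-1.11, SE 0.41, adjusted p = 0.0354). Ifi27l2a was higher than 0 d at 3 d (1.58, SE 0.35, adjusted p = 0.0019) and at 4 d (1.58, SE 0.35, adjusted p = 0.0144). Ifitm2, which keeps virus from fusing, rose at 0.25 d (0.76, SE 0.19, adjusted p = 0.00184) and was higher at every time to 2 d.

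Of 11 tested gamma targets outside the members, 2 rose and 3 fell at 0.25 d, 2 rose and 4 fell at 0.5 d, and 1 rose and 3 fell at 0.75 d. Against the shares of all genes given for the type I targets, the rises and the falls at 0.25 d were close to the background. The counts were 1 and 5, 2 and 4, and 1 and 5 with both arrays left out. Of all genes 13.2% rose and 25.6% fell at 0.25 d in that fit, 12.8% and 16.2% at 0.5 d, and 11.8% and 15.9% at 0.75 d. Gbp6 was at 7.86, 7.72 and 8.77 at 0 d, 7.97, 4.86 and 4.78 at 0.25 d and 6.39, 5.91 and 3.22 at 0.5 d, with a difference of -2.94 (SE 0.66, adjusted p = 0.000967). Gbp8 fell as well (-1.90, SE 0.31, adjusted p = 2.48e-05) and was low on all 3 arrays of 0.25 d, at 4.34, 3.80 and 3.24. Cd74, the invariant chain of MHC class II, fell at every time from 0.5 to 4 d, with -2.24 (SE 0.25, adjusted p = 4.79e-07) at 2 d, and Icam1, an adhesion molecule that NF-kB also induces, rose at every time from 0.25 to 1.5 d, by 1.28 (SE 0.29, adjusted p = 0.0012) at 0.5 d. In the fit to 31 arrays the 0.25 d call of Icam1 was lost, and it was called higher at every time from 0.5 to 3 d.

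**Figure D5:**
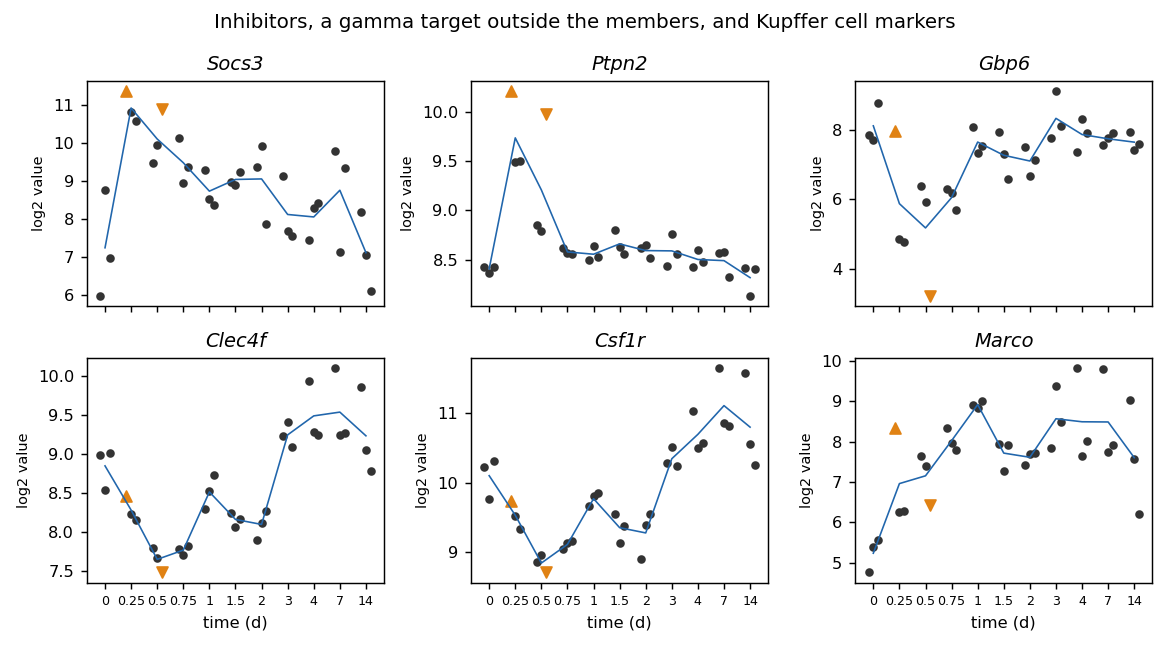
Points are log2 values of 6 genes outside the members on the 33 arrays at 11 times, blue lines join the means, and orange triangles are 0.25 d replicate 1 (up) and 0.5 d replicate 3 (down). Socs3 and Ptpn2 are highest at 0.25 d, with 0.5 d replicate 3 at the 0.25 d level. Gbp6 has its lowest mean at 0.5 d with all arrays and at 0.25 d without the triangles. Of the Kupffer cell markers, Clec4f is called lower at 0.25, 0.5, 0.75, 1.5 and 2 d and Csf1r at 0.5, 0.75, 1.5 and 2 d. Marco is called higher at every time from 0.25 to 7 d.

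The 10 genes outside the members whose values were most alike the scaled mean of the 16 type I genes over the 33 arrays had Pearson correlations from 0.88 to 0.94. They were Rtp4, Rnf213, Trim30d, Trim34a, Samd9l, Ddx60, Dhx58, Gbp7, Mndal and Phf11d. For the 9 gamma genes the 10 were Gbp7, Trim34a, Mndal, Ddx60, Rtp4, Irgm2, Trim12c, Trim12a, Tap1 and Dhx58, from 0.87 to 0.92. The 2 class means correlated at 0.88 with each other. These correlations are descriptions over arrays that share times and the 2 arrays that stood apart, and over the other 31 arrays Mpeg1, Ly6e, Ifi27l2a and Tapbp entered the type I set and Psmb8, Gbp6, Psme1 and Fahd1 the gamma set.

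Kupffer cell markers changed as well. Of 13 tested, 4 fell and 1 rose at 0.5 d, 2 fell and 1 rose at 0.75 d, and 5 rose and 0 fell at 3 d, with median differences of -0.50, -0.42 and 0.67. At 0.25 d 1 fell (Clec4f) and 2 rose, and at 1.5 and 2 d 2 fell (Clec4f and Csf1r) and 1 rose (Marco). The median differences at these 3 times were -0.05, -0.05 and -0.25. The background shares given above apply to these counts too, and 2 of 13 at 0.75, 1.5 and 2 d is close to the background. The marker median was 0.48 at 1 d, 0.84 at 4 d, 1.01 at 7 d and 0.72 at 14 d, when the medians of the member classes lay between -0.18 and 0.32. In the fit to 31 arrays 3 fell and 1 rose at 0.5 d, and 5 rose at 3 d. Clec4f, the lectin of mouse Kupffer cells, was at 9.0, 8.54 and 9.02 at 0 d and 7.80, 7.67 and 7.48 at 0.5 d, with no overlap (-1.20, SE 0.23, adjusted p = 0.000169). Csf1r, the receptor for the macrophage growth factor, fell at 0.5 d, with -1.26 (SE 0.24, adjusted p = 0.000231), and Cd5l rose at 3 d by 1.38 (SE 0.37, adjusted p = 0.00966). Marco, a scavenger receptor, rose from 4.76, 5.39 and 5.55 at 0 d to 8.91, 8.83 and 9.01 at 1 d. The summed signal of the 13 markers was 3940 to 5740 at 0 d, 3910 to 5160 at 0.25 d, 2690 to 3620 at 0.5 d, 3750 to 4320 at 0.75 d and 6670 to 7570 at 1 d. It was 4120 to 5220 at 1.5 d, 3780 to 4940 at 2 d, 8130 to 10400 at 3 d, 7830 to 13700 at 4 d, 8360 to 17800 at 7 d and 5450 to 14900 at 14 d. The part of these cells in the members' course was not tested.

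Of 10 sinusoidal endothelial markers, 5 fell and 1 rose at 0.25 d and 4 fell and 1 rose at 0.5 d. Their summed signal was 2960 to 3770 at 0 d and 2730 to 2860 at 0.5 d. Of all genes 28.8% fell and 17.2% rose at 0.25 d, and 19.4% fell and 15.8% rose at 0.5 d. These shares apply to the next counts too. Of 8 tested neutrophil and monocyte markers, 4 rose at 0.25 d and 3 at 0.5 d, led by S100a9 (2.56, SE 0.56, adjusted p = 0.000614 at 0.25 d), and their summed signal went from 276 to 330 at 0 d to 548 to 717 at 0.25 d. T and natural killer cell markers were near the floor, with 10 of 16 measured genes past the filter and a summed signal of 554 to 596 at 0 d and 514 to 578 at 0.5 d. On 0.25 d replicate 1 this sum was 820, and its chemokine Ccl5 was at 7.86, 5.78 and 5.92 at 0.25 d, while Cd3e was at 6.31, 6.13 and 6.40 and Prf1 at 6.02, 5.87 and 6.03. Plasmacytoid dendritic cell markers, of cells that make much type I interferon, summed to 390 to 423 at 0 d and 380 to 402 at 0.25 d, with 4 of 7 measured genes past the filter. Conventional dendritic cell markers summed to 240 to 246 at 0 d and 226 to 242 at 0.5 d, and B cell markers to 321 to 452 and 278 to 333. The part of these cell types in the members' course was not tested.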

How the data were processed

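Per the labels' protocols, liver RNA was isolated in Trizol and 5 µg of it amplified from the 3' end, biotin-labelled and put on Affymetrix mouse arrays. The deposited values are log2 values that the authors summarized with RMA, per the submitters' processing notes. Its version is not given in the sources used here. Because RMA equalizes the arrays' distributions, a change shared by most genes cannot be seen. The arrays were read as liver, as source and tissue have it, although 1 label field describes fat-derived cells.

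Of 45101 probe sets, 34945 carried a single symbol, 932 several and 9160 none, and 64 were controls. The brightest probe set on average represented each of 18193 genes, and 13642 genes passed the filter (3 arrays or more with log2 of at least 5). limma 3.58.1 in R 4.3.3 fitted a mean per time to all 33 arrays with lmFit and eBayes, which left 22 residual degrees of freedom and a prior of 3.69. Tests were two-sided at an adjusted p of 0.05, with Benjamini-Hochberg adjustment over all genes tested in each comparison. The comparisons with 0 d share the 0 d arrays. The P-values rest on each gene's spread between livers of the same time, pooled over all times and moderated by the prior. They do not rest on the spread at the compared times alone, and 3 arrays per time limit the precision. No depth exists for arrays. On simulated data for 2 d against 0 d over 13642 genes, with 200 genes changed, the fit recovered 56% of changes of 0.5, 90% of changes of 1 and 100% of changes of 2 on the log2 scale.

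The members, classes and gene lists were chosen with earlier results of these data known. All members may be named. Of each pathway list the called genes, or the 4 with the largest difference where more were called, are named, of each marker list the 3 with the highest means and those called (in part as counts), and of genes alike in pattern the 10 with the highest correlation. Leaving out both arrays that stood apart was an alternative chosen after seeing the data. Figures were drawn with matplotlib 3.10.9.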

Additional observations from a re-analysis of the deposited data

How the results depend on the processing

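Of the 38 differences from 0 d called for single members with all arrays, the intensity trend with a robust prior and the replicate block kept all 38, and quantile normalization lost 6, the fit to only the arrays compared 10, array weights 4, adjustment over the 10 comparisons together 4, a common median 3, and no filter, or the mean of all probe sets, 2 each. With the filter at 7, 34 remained and the other 4 were not tested. Leaving out both 0.25 d replicate 1 and 0.5 d replicate 3 lost 4, and leaving out 0 d replicate 3 alone lost 10. Without 0.25 d replicate 1, alone or with the other array, the 0.25 d difference turned from above to below 0 for 10 of 35 members: Ifit2 (-0.75), Usp18 (-1.18), Eif2ak2 (-0.32), Gbp2, Iigp1, Irf9, Oas1a, Oasl2, Parp9 and Trim30a. Of these, Ifit2 and Usp18 were called lower in both fits and Eif2ak2 without both arrays. Over single arrays left out, the Usp18 difference ran from -1.18 to 0.92 and that of Ifit2 from -0.75 to 0.75. The cause of these changes beyond the arrays left out was not tested.

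Counts of members lower than 0 d at 0.25, 0.75, 1, 1.5 and 2 d were 9, 13, 4, 7 and 5 with array weights, 22, 19, 5, 9 and 6 without both arrays, and 1, 15, 3, 8 and 5 with only the arrays compared. Shares of all genes called were computed with all arrays, without both arrays, and without 0.25 d replicate 1, 0.5 d replicate 3 or 0.75 d replicate 3. For the other settings of this section they were not computed. Their counts of members called therefore cannot be set against a background. Members higher numbered 1, 5 and 2 at 0.25, 3 and 4 d with array weights, 0, 8 and 2 with only the arrays compared, and 1, 10 and 3 without both arrays. Other counts that moved were small: higher at 0.25 d 4 with quantile normalization and 1 with the filter at 7, lower at 1 d 1 without the filter, lower at 1.5 d 1 with quantile normalization, lower at 2 d 2 with the filter at 7, higher at 2 d 1 with array weights, higher at 0.75 and 1.5 d 1 each with only the arrays compared, lower at 3 d 1 with the mean of probe sets, without both arrays and with only the arrays compared, and higher at 4 d 2 and at 7 d 1 with the joint adjustment. On the steps, array weights gave 1 higher and 1 lower from 0.25 to 0.5 d, 8 higher from 0.75 to 1 d, 1 higher and 3 lower from 1 to 1.5 d, 4 higher from 2 to 3 d and 1 lower from 3 to 4 d. Leaving out both arrays gave 12 higher and 0 lower, 10 higher, 4 lower, 2 higher and 1 lower on the same steps, and the filter at 7 gave 1 lower from 0.5 to 0.75 d. The members that varied numbered 33 without both arrays.

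With each of the 33 arrays left out in turn, members lower ran from 3 to 20 at 0.25 d, 6 to 21 at 0.5 d, 4 to 16 at 0.75 d, 1 to 4 at 1 d, 1 to 8 at 1.5 d, 1 to 6 at 2 d and 0 to 1 at 3 d, and members higher from 1 to 5 at 0.25 d, 1 to 2 at 1 d, 1 to 6 at 3 d and 1 to 3 at 4 d. The steps ran from 2 to 16 lower and 0 to 1 higher from 0.25 to 0.5 d, 0 to 5 higher from 0.75 to 1 d, 0 to 2 lower from 1 to 1.5 d, and 0 to 1 on 3 further counts (lower from 0.5 to 0.75 d, higher from 2 to 3 d, lower from 3 to 4 d), and the members that varied from 15 to 31. Whether the replicate numbers pair the arrays was not tested. Of 165 pairs of arrays with the same number 33 had deviations that correlated over 0.1 (median 0.02), and of 330 with other numbers 52 (median -0.01). With the replicate block 15 members were lower at 0.5 d, 10 at 0.75 d and 20 varied, and no count moved by over 1.5 times. Signal near the array floor limits what can be seen for the interferon genes and for Mx1.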
